A study of Mus musculus with 192 samples.

Results

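The mitochondrial chromosome of the mouse carries the genes of 7 subunits of respiratory complex I, mt-Nd1, mt-Nd2, mt-Nd3, mt-Nd4, mt-Nd4l, mt-Nd5 and mt-Nd6. These 7 genes, chosen by name out of 54752 genes listed in the deposited table, were followed in 184 of 192 RNA-seq libraries from 9 mouse tissues. Their mRNAs took up the largest share of transcripts in interscapular brown adipose tissue (iBAT) among the poly(A)-selected tissues and the smallest share in spleen (Spl). In iBAT, relative to the bulk of genes, 6 of the 7 mRNAs were lower in wild-type mice flown in space than in wild-type ground controls, where 10.3% of all genes were lower, and 5 of the 7 were lower in flown than in ground Nrf2 knockout mice, where 16.6% were. As shares of all transcripts, 1 of the 7 (mt-Nd6) and 4 of the 7 were called lower, on a scale to which these percentages of all genes do not apply. In thymus (Thy), 4 of the 7 were higher in Nrf2 knockout than in wild-type ground controls, where 2.67% of all genes were higher.

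Complex I, the NADH dehydrogenase of the inner mitochondrial membrane, passes electrons from NADH to ubiquinone and pumps protons across the membrane. Its membrane arm is built around the mitochondrially encoded subunits, whereas the core subunits of its peripheral arm and all its supernumerary subunits are encoded in the nucleus and imported. Mitochondrial DNA is transcribed from both strands as long precursors, which are cut into mRNAs, rRNAs and tRNAs, so that genes on the same strand share precursors while their mature mRNAs can decay at different rates. mt-Nd6 is the one protein-coding gene on the strand opposite to all others, and its human counterpart is known for a short or missing poly(A) tail. Brown adipose tissue is known for its dense mitochondria, which burn fuel to produce heat. Nrf2, encoded by Nfe2l2, is a transcription factor that induces detoxifying and antioxidant genes.

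The mice were male and labelled as 12 weeks old and C57BL/6 (C57BL/6J in the study's methods), either wild type (WT) or carrying a disrupted Nfe2l2 in all tissues (KO). The study's methods give 12 weeks as the age when flight mice were ready for transport to space, so that they were older at dissection. FL_WT and FL_KO mice spent about a month on the International Space Station, and GC_WT and GC_KO mice were kept on the ground in Japan at another date. The flight mice were dissected in San Diego after the return to Earth and transport. Flight, return, site and date of the experiment thus cannot be told apart. Each group had 6 mice, or 5 for FL_KO, in Spl, Thy, iBAT, cerebrum (Cbr), temporal bone (TpB), liver (Liv) and white adipose tissue of the epididymis (eWAT). Mandibular bone (MdB) and kidney (Kid) had 3 mice per group, except for 2 FL_KO mice in MdB. One FL_KO mouse that the study itself left out, mouse 04, was also left out here. Thy libraries were made from rRNA-depleted total RNA and those of the other 8 tissues from poly(A) RNA, so that tissue and library type cannot be told apart for Thy.

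Libraries of the 8 poly(A) tissues held 13110740 to 16308175 expected counts in all and those of Thy 8007523 to 10564704. Expected counts are RSEM's estimates of reads per gene, in which a read that fits several genes is divided among them. Nfe2l2 was lower in KO than in WT mice in all 9 tissues, with no overlap between the genotypes. Marker lists of hepatocytes, kidney tubules, neurons, white and brown adipocytes, osteoblasts and T cells were each highest in the tissue that they mark. TpB also held the highest summed levels of the skeletal muscle list (median 22724 TPM in GC_WT) and of the erythroid list (59041 TPM). TPM (transcripts-per-million) corrects for gene length and sums to the same total in each library. Because these are bulk tissues, fewer cells of a type and less RNA per cell cannot be told apart in any value below.

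The 7 genes lie on chrM (GRCm38), each in a single exon. All but mt-Nd6 lie on the plus strand, mt-Nd1 at chrM:2751-3707, mt-Nd2 at chrM:3914-4951, mt-Nd3 at chrM:9459-9806, mt-Nd4l at chrM:9877-10173, mt-Nd4 at chrM:10167-11544 and mt-Nd5 at chrM:11742-13565. mt-Nd6 lies on the minus strand at chrM:13552-14070. They range in length from 297 bases for mt-Nd4l to 1824 bases for mt-Nd5. mt-Nd4l and mt-Nd4 share 7 bases on the same strand, in different reading frames, and the ends of mt-Nd5 and mt-Nd6 share 14 bases on opposite strands. Both junctions are shown because they are where members overlap each other; the overlaps are shorter than a read. In them, capitals mark the shared bases, read on the plus strand.
mt-Nd4l to mt-Nd4, chrM:10150-10190: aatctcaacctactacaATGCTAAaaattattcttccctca
mt-Nd5 to mt-Nd6, chrM:13536-13581: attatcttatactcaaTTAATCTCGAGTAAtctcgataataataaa

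Within the first junction, the start codon of mt-Nd4 (ATG) ends 1 base before the stop codon of mt-Nd4l (TAA). The opposite end of mt-Nd4 is of interest as well, since its length of 1378 bases leaves 1 base after the last whole codon. Such an incomplete stop codon is known to be completed by the poly(A) tail that mitochondrial mRNAs receive. The last bases of mt-Nd4 are printed with that single base in capitals.
mt-Nd4, chrM:11521-11544: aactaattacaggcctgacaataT

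Copies of mitochondrial DNA in the nuclear genome decide how the counts of 3 members can be read. A stretch of chromosome 1, chr1:24611535-24616197 on the minus strand, holds the unprocessed pseudogenes Gm10222, Gm28438 and Gm28439, which were compared base by base with mt-Nd4l, mt-Nd3 and mt-Nd4. Gm10222 matched bases 1 to 294 of mt-Nd4l with 0 substitutions, and mt-Nd4l had 3 more bases, its stop codon. Gm28438 matched bases 1 to 345 of mt-Nd3 with 1 substitution, T3C (the base of mt-Nd3, its position counted from 1 at the 5′ end of the gene, the base of the copy), and again mt-Nd3 had 3 more bases. The ends are shown because they hold all that separates gene from copy; capitals mark the bases that differ or that only the gene has.
mt-Nd4l 3′ end, chrM:10126-10173: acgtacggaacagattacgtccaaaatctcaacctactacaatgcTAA
Gm10222 3′ end, chr1:24612407-24612451: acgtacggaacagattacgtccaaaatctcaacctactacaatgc
mt-Nd3 5′ end, chrM:9459-9506: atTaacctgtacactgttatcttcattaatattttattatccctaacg
Gm28438 5′ end, chr1:24613072-24613119: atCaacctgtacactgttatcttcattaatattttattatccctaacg
mt-Nd3 3′ end, chrM:9759-9806: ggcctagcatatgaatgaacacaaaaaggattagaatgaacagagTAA
Gm28438 3′ end, chr1:24612775-24612819: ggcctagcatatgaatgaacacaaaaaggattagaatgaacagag

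For reads of 76 bases, 3 of the 222 possible start positions of mt-Nd4l (1.35%) gave a read that fits no other listed transcript. For mt-Nd3 there were 6 of 273 (2.2%) and for mt-Nd4, whose first 876 bases are identical to Gm28439, 502 of 1303 (38.5%). Of the other members, mt-Nd1 and mt-Nd6 shared no read position with another gene, mt-Nd5 shared 27 of 1749 and mt-Nd2 54 of 963. The expected counts of mt-Nd4l followed these numbers. All 165 libraries with a count above 0 for mt-Nd4l held a multiple of 74, which is 222 divided by 3, within a tolerance of 0.01 steps. A median of 53 such steps was found in iBAT, with a range of 34 to 90, and 7 in Cbr. The count of mt-Nd4l was 0 in 15 of 23 Thy libraries, where no library had more than 2 steps, and in 4 libraries of Spl and MdB together. Values of mt-Nd4l thus move in steps of 74 counts and rest on far fewer reads than their size would show. For mt-Nd3, its 6 positions gave a step of 45.5 counts, and 158 of all 192 libraries, mouse 04 included, held a multiple of it. In the libraries used, these were even multiples only, such as 455, 637 and 728. The counts of mt-Nd3 thus moved in larger steps than its 6 positions gave. These values of mt-Nd3 also rest on fewer reads than their size would show.

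**Figure D1:**
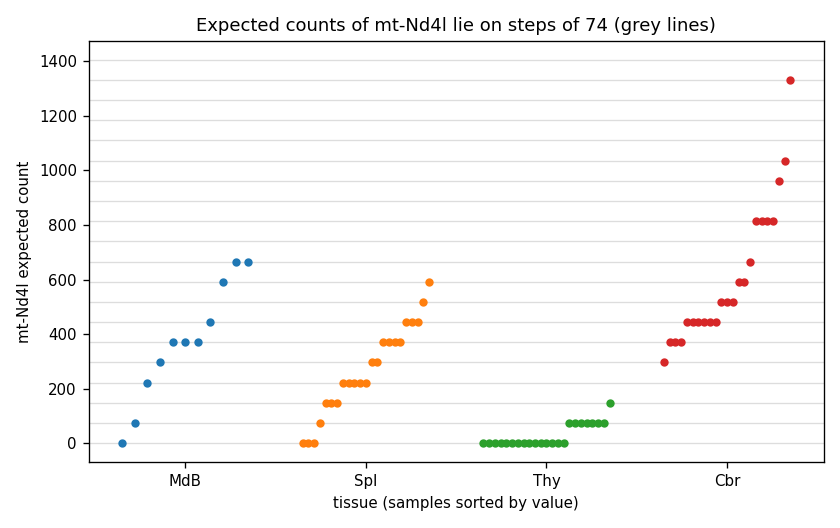
Expected counts of mt-Nd4l in every library of MdB, Spl, Thy and Cbr (y axis, counts; x axis, libraries sorted by count within each tissue), with horizontal lines at multiples of 74. Every point lies on a line, and 15 of the 23 Thy libraries lie at 0.

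The shares of gene and copy in their sum differed between tissues. mt-Nd3 held a median of 99.96% of the sum of mt-Nd3 and Gm28438 in Cbr, with a lowest value of 67.3%, but 18.8% in Kid, 20.7% in iBAT and 39.3% in Spl. In Thy this share was 48.8%. mt-Nd4l held a median of 3.67% (Cbr) to 6.15% (Spl) of its sum with Gm10222 in the poly(A) tissues and 0% in Thy. mt-Nd4 held a median of 100% of its sum with Gm28439 in every tissue and no less than 94.8% in any library. The level of mt-Nd3 was therefore not comparable between Cbr and the other tissues, and sums of gene and copy are given beside mt-Nd3 and mt-Nd4l.

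**Figure D2:**
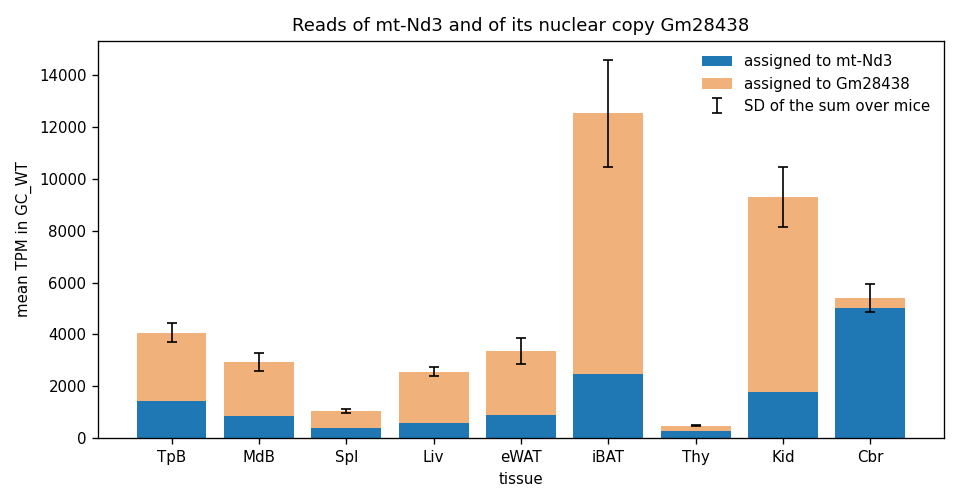
Mean TPM of mt-Nd3 and of its nuclear copy Gm28438 in GC_WT mice, stacked by tissue, with the SD of their sum over mice. In Cbr most of the sum was assigned to mt-Nd3, while in Kid and iBAT Gm28438 held most of it.

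In GC_WT mice, the summed TPM of the 7 mRNAs amounted to 14.1 ± 0.72% of all TPM in iBAT (mean ± SD, n = 6), 8.62 ± 0.50% in Kid (n = 3) and 5.70 ± 0.39% in Cbr (n = 6). They were followed by eWAT with 5.06 ± 0.59%, TpB with 4.96 ± 0.75% and Liv with 4.75 ± 0.43% (n = 6 each). MdB had 2.99 ± 0.27% (n = 3) and Spl 1.56 ± 0.13% (n = 6). The ranges of Cbr, eWAT, TpB and Liv overlapped from one to the next, while iBAT, Kid, MdB and Spl overlapped with no neighbour in this order. Here and below, the summed share leaves out what was assigned to the nuclear copies, and this part differed between tissues. Gm28438 held a mean of 10072 TPM in iBAT and 395 TPM in Cbr, and Gm10222 held 24227 TPM in iBAT. In Thy, with its other kind of library, the sum was 0.144 ± 0.025% (n = 6). The ratio of the 7 mRNAs to the mitochondrial rRNAs was 0.371 in Thy and 3.81 in Cbr, the lowest among the poly(A) tissues. This ratio contains the same sum and is therefore no separate measure of library type. The mitochondrial rRNAs themselves held a mean of 0.387% of all TPM in Thy, between 0.352% in Kid and 0.404% in TpB. How much of the low level of the 7 mRNAs in Thy belongs to the tissue was not tested.

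mt-Nd4 and mt-Nd1 were the most abundant members. mt-Nd4, mt-Nd2 and mt-Nd5 encode the proton-pumping subunits that resemble bacterial antiporters, and mt-Nd1 encodes the subunit next to the ubiquinone site. On the TPM scale, mt-Nd4 reached 47528 ± 2235 in iBAT and 4852 in Spl, and mt-Nd1 39097 ± 3077 and 4870. mt-Nd4 had the highest mean of the 7 in TpB, MdB, Liv, eWAT and iBAT, and mt-Nd1 in Spl, Thy, Kid and Cbr, but the ranges of both genes overlapped in TpB, Spl, Thy, Kid and Cbr. mt-Nd2 came to 31926 ± 2440 TPM in iBAT and 2456 in Spl. mt-Nd5, the largest subunit, came to 15980 ± 1979 TPM in iBAT and 2779 in Spl, 5.75-fold between these tissues, the smallest span of any member among the poly(A) tissues.

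mt-Nd6 encodes a membrane subunit close to the ubiquinone channel and showed the widest span among the poly(A) tissues. It had 2125 ± 153 TPM in iBAT and 49.3 ± 4.13 in Spl, a difference of 43.1-fold. The corresponding spans were 8.03-fold for mt-Nd1, 13.0-fold for mt-Nd2 and 9.80-fold for mt-Nd4, and 11.1-fold for mt-Cytb, the cytochrome b gene that lies next to mt-Nd6 on the other strand. In the remaining tissues mt-Nd6 had 824 TPM in Kid, 697 in Cbr, 362 in eWAT, 297 in Liv, 175 in TpB, 146 in MdB and 44.7 in Thy. It was the lowest member in TpB, MdB, Spl, Liv and eWAT, and mt-Nd4l, listed alone, the lowest in iBAT, Thy, Kid and Cbr. The ranges of both genes overlapped in MdB, Spl, Liv, eWAT, Kid and Cbr. Summed with Gm10222, mt-Nd4l came to 25630 TPM in iBAT, so that its rank depended on the division of reads. The ratio of mt-Nd6 to mt-Nd5, which overlap at their ends and lie on opposite strands, ran from 0.0178 in Spl and 0.0250 in TpB to 0.112 in Cbr and 0.134 in iBAT, and was 0.315 in Thy.

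mt-Nd3 encodes a small subunit with a loop at the joint of both arms, and mt-Nd4l the smallest subunit, which sits near the same joint. Listed alone, mt-Nd3 was highest in Cbr with 5007 ± 825 TPM and came to 2458 ± 233 TPM in iBAT and 386 in Spl. Summed with Gm28438 it was highest in iBAT with 12530 ± 2064 TPM, followed by Kid with 9291 TPM and Cbr with 5401 ± 536 TPM, and it came to 1054 TPM in Spl. The order of the tissues for mt-Nd3 thus depended on the division of reads between gene and copy. mt-Nd4l had 1403 ± 179 TPM in iBAT and 196 in Spl alone, and 25630 ± 1654 and 2390 TPM with Gm10222, which placed the sum between mt-Nd5 and mt-Nd2 in iBAT.

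**Figure D3:**
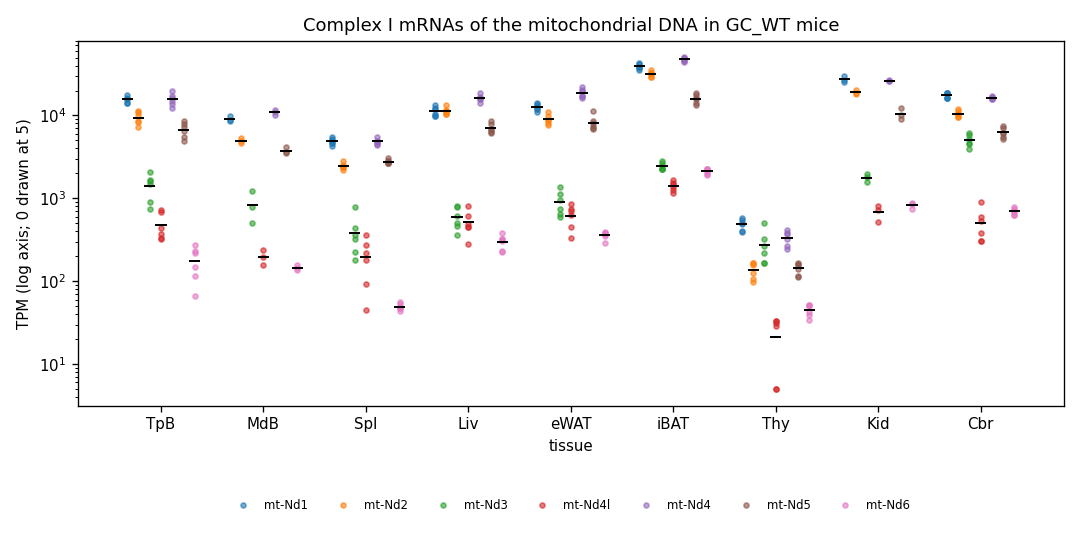
TPM of the 7 mRNAs in each GC_WT library by tissue, on a log axis, with a value of 0 drawn at 5. By GC_WT means, iBAT lies highest for every member but mt-Nd3, and Spl is the lowest of the poly(A) tissues, with mt-Nd4l at nearly the same level in MdB.

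The nuclear core subunits of complex I, 7 genes that form the peripheral arm, followed a like order of tissues at a much lower level. They summed to 0.237% of all TPM in iBAT, 0.0470% in Spl and 0.0298% in Thy. The ratio of the 7 mitochondrially encoded to these 7 nuclear core mRNAs, again without the nuclear copies, ranged from 33.2 in Spl to 69.6 in Liv in the poly(A) tissues. It was 4.83 in Thy. Across the 9 tissue means of GC_WT mice, the mean log2(TPM + 1) of the 7 members had a median correlation of 0.91 with the nuclear core genes, 0.88 with 30 supernumerary genes, 0.79 with 17 assembly factors and 0.35 with 33 genes of mitochondrial transcription and RNA handling. These are descriptions over 9 points that share the contrast of Thy with all other tissues. Without Thy the medians were 0.93, 0.89, 0.39 and −0.24, so that the last of them turned in sign. The median over 17197 nuclear genes was 0.005 with Thy and −0.36 without it. The nuclear genes most like the members were the pseudogenes Gm10925 (0.99), Gm28661 (0.99), Gm10222 (0.99) and Gm13341 (0.98), which hold copied mitochondrial sequence, and Mipep (0.98), which encodes a peptidase that trims imported mitochondrial proteins.

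Flight was compared with ground control within each genotype, tissue by tissue, with edgeR's quasi-likelihood test and Benjamini-Hochberg adjustment over all genes of a tissue. Values for these comparisons are counts-per-million (CPM) with TMM scaling, which sets the bulk of genes to a difference near 0. They are not corrected for length and are compared between groups only. Genes with an adjusted p under 0.05 were called. In WT mice, 8 of the 63 pairs of member and tissue were called, 7 lower and 1 higher after flight. They comprised 6 members in iBAT, mt-Nd6 in eWAT and mt-Nd1 in Thy. Over all genes tested, 19.2% were called in iBAT (10.3% as lower and 8.83% as higher), 13.4% in eWAT (6.78% as lower) and 22.8% in Thy (11.8% as higher).

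**Figure D4:**
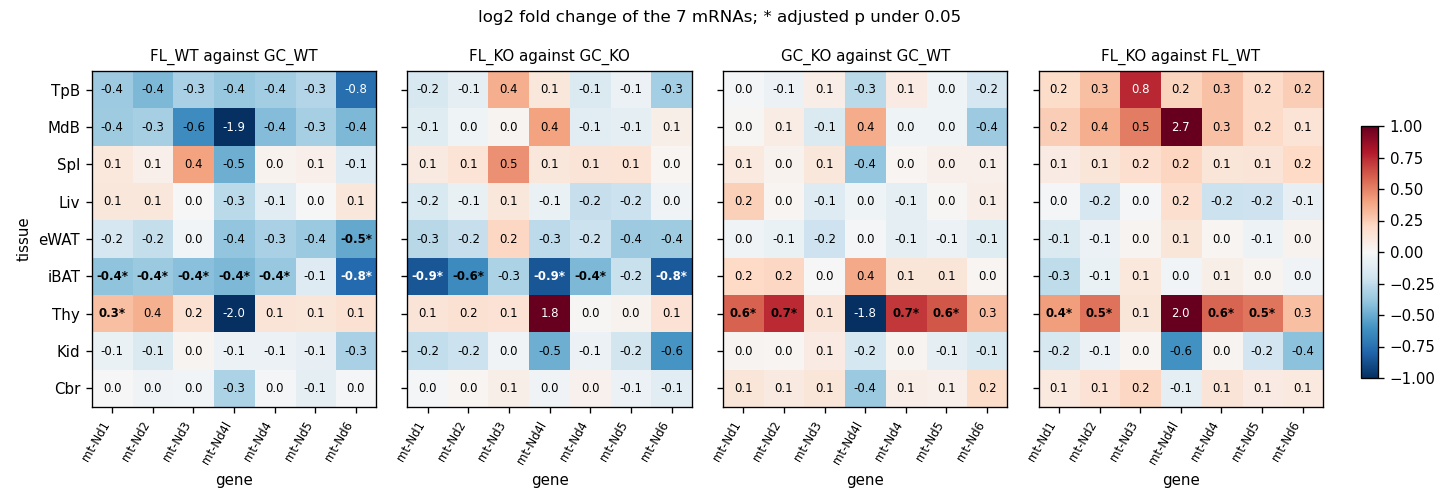
Log2 fold changes of the 7 members in the 9 tissues for flight against ground in WT and KO mice and for KO against WT on the ground and in flight, with called pairs marked. Calls were found in iBAT and eWAT (lower after flight) and in Thy (higher after flight or in KO mice).

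mt-Nd6 showed the largest difference in iBAT of WT mice. Its CPM ran from 703 through a median of 779 to 934 in GC_WT and from 374 through 453 to 626 in FL_WT, so that no FL_WT mouse reached the lowest GC_WT mouse. The log2 fold change was −0.78 ± 0.10 (SE), or 0.583-fold, with an adjusted p of 2.23e-05 (edgeR).

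mt-Nd2, which pumps protons in the middle of the membrane arm, ran from 22955 through 25416 to 31696 CPM in GC_WT and from 17677 through 20347 to 22850 in FL_WT. These ranges did not overlap either, and the log2 fold change was −0.37 ± 0.08 (adjusted p = 0.00187, edgeR). mt-Nd1 ran from 24941 through 28492 to 35726 CPM in GC_WT and from 17503 through 22940 to 26008 in FL_WT. The highest FL_WT mice thus passed the lowest GC_WT mice, and the log2 fold change was −0.40 ± 0.10 (adjusted p = 0.00665, edgeR). For mt-Nd4, the ranges of 45000 to 60729 CPM in GC_WT and 35288 to 47848 in FL_WT overlapped as well, at a log2 fold change of −0.38 ± 0.09 (adjusted p = 0.00678, edgeR).

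The members that share most of their reads with nuclear copies, mt-Nd3 and mt-Nd4l, were also called lower. mt-Nd3 ran from 453 to 720 CPM in GC_WT and from 352 to 519 in FL_WT (log2 fold change −0.42 ± 0.13, adjusted p = 0.0304, edgeR). mt-Nd4l ran from 204 to 331 and from 140 to 232 CPM (−0.45 ± 0.15, adjusted p = 0.035, edgeR). Summed with their copies before the test, the log2 fold changes were −0.73 for mt-Nd3 (adjusted p = 0.000396, edgeR) and −0.47 for mt-Nd4l (adjusted p = 0.00265, edgeR). mt-Nd5 was the member that was not called. It ran from 21195 through 23040 to 29742 CPM in GC_WT and from 15720 through 21391 to 27228 in FL_WT, and its log2 fold change was −0.13 with a 95% interval of −0.35 to 0.10.

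In KO mice, 5 of 63 pairs were called, all of them lower after flight and all in iBAT, where 33.5% of all genes were called (16.6% as lower). mt-Nd1 came to 19375, 18344, 20708, 17731 and 17900 CPM in the 5 FL_KO mice against 31296 to 36473 with a median of 34555 in GC_KO. The groups lay far apart, with a log2 fold change of −0.86 ± 0.11, or 0.552-fold (adjusted p = 2.71e-06, edgeR). mt-Nd6 had 406, 485, 462, 451 and 496 CPM in FL_KO against 703 to 886 with a median of 869 in GC_KO, again without overlap (−0.84 ± 0.11, adjusted p = 5.67e-06, edgeR). mt-Nd2 had 20638, 19308, 20797, 18273 and 18620 CPM in FL_KO against 29287 to 32547 in GC_KO (−0.64 ± 0.08, adjusted p = 4.68e-06, edgeR).

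mt-Nd4 differed less, at 50591, 48559, 39824, 36913 and 36016 CPM in FL_KO against 53669 to 60594 in GC_KO (−0.45 ± 0.10, adjusted p = 0.00161, edgeR). Its groups did not overlap, but FL_KO mice 01 and 02 lay close to GC_KO. mt-Nd4l had 209, 222, 214, 185 and 132 CPM in FL_KO against 294 to 481 in GC_KO (−0.85 ± 0.16, adjusted p = 0.000239, edgeR), and the sum with Gm10222 had a log2 fold change of −0.52 (adjusted p = 0.000858, edgeR). mt-Nd3 and mt-Nd5 were not called. mt-Nd3 was 651 CPM in FL_KO mouse 01 and 388 to 490 in the other FL_KO mice, against 467 to 638 in GC_KO (−0.32 ± 0.14, adjusted p = 0.0853, edgeR), and was called without mouse 01 (−0.47) and when summed with Gm28438 (−0.85, adjusted p = 6.54e-05, edgeR). mt-Nd5 had 18377 to 25419 CPM in FL_KO and 22711 to 30524 in GC_KO (−0.22 ± 0.12, adjusted p = 0.156, edgeR), with a 95% interval of −0.46 to 0.01.

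**Figure D5:**
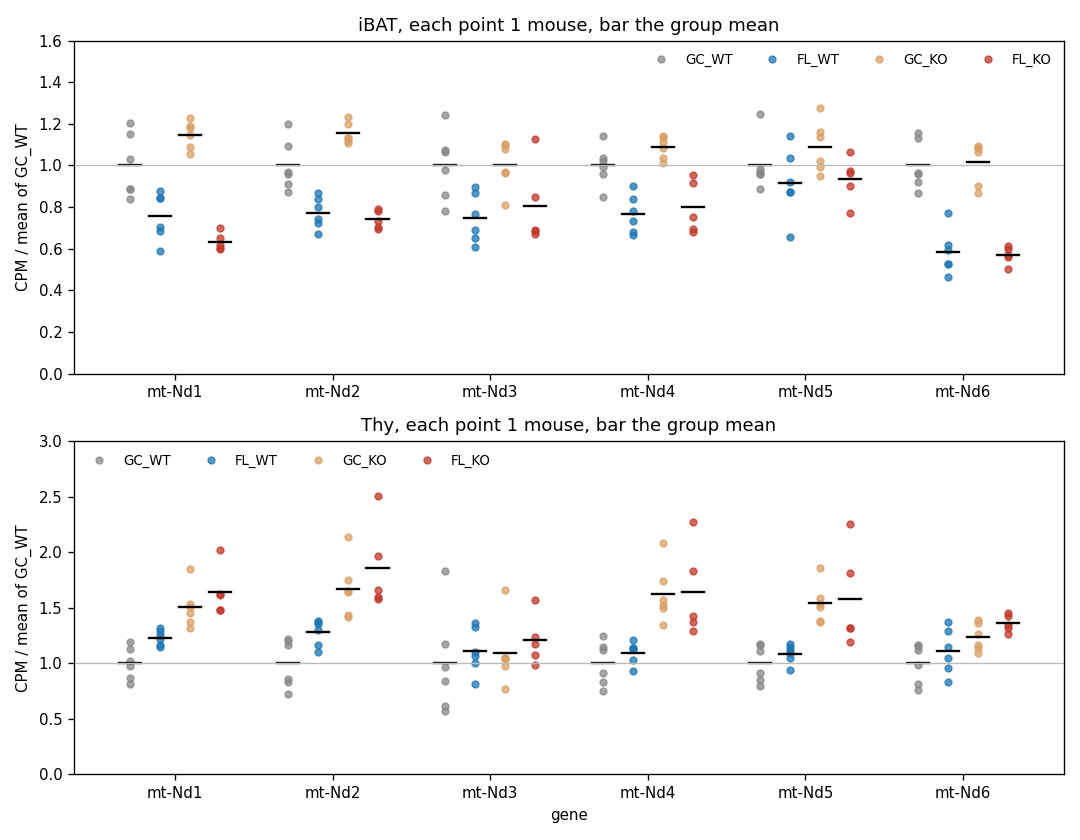
CPM of 6 members relative to the mean of GC_WT (y axis) in every mouse of the 4 groups in iBAT and Thy; mt-Nd4l is not drawn. In iBAT, FL_WT and FL_KO mice lie mostly below their ground controls for mt-Nd1, mt-Nd2, mt-Nd4 and mt-Nd6, and in Thy the GC_KO mice lie above the GC_WT mice for mt-Nd1, mt-Nd2, mt-Nd4 and mt-Nd5.

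These differences in iBAT are relative to the bulk of genes. All percentages of genes called in this text belong to the test with TMM scaling, so that calls on the TPM scale stand without such a share. On the TPM scale, the median of all genes in iBAT was itself 0.31 (WT) and 0.43 (KO) higher after flight on log2(TPM + 1). There, limma called mt-Nd6 in WT mice (−0.48, adjusted p = 0.000639) and mt-Nd1 (−0.43), mt-Nd2 (−0.21), mt-Nd4l (−0.42) and mt-Nd6 (−0.40) in KO mice. mt-Nd1, mt-Nd2, mt-Nd3, mt-Nd4l and mt-Nd4 of WT mice lay between −0.14 and −0.06 and were not called. The TPM-scale values of mt-Nd5 were 0.17 and 0.21, opposite in sign to those with TMM scaling, and so was mt-Nd3 of KO mice at 0.09, none of them called on either scale. The summed share of the 7 mRNAs in all TPM of iBAT was 13.6 ± 1.03% in FL_WT (n = 6) beside 14.1 ± 0.72% in GC_WT, and 13.5 ± 0.46% in FL_KO (n = 5) beside 14.98 ± 0.48% in GC_KO (n = 6). Over all tissues, the TPM scale gave 7 called pairs in WT mice, 5 of them higher and 2 lower after flight, and 7 in KO mice, 3 higher and 4 lower.

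The other genes of complex I in iBAT were lower too. Of the 7 nuclear core genes, 6 were lower in FL_WT (median log2 fold change −0.39, beside 0.02 for all genes) and 7 in FL_KO (−0.64, beside 0.04). Ndufs8, which holds iron-sulfur clusters, changed most clearly among them (−0.80 in WT and −1.18 in KO mice). Of 30 supernumerary genes, 26 were lower in FL_WT (median −0.45) and 28 in FL_KO (median −0.53), with Ndufa9 at −0.49 and −0.71 and Ndufa10 at −0.47 and −0.65. Of 18 assembly factors, 10 and 13 were lower (medians −0.26 and −0.40), with Ndufaf7, a methyltransferase, at −0.36 and −0.70. These lists moved only in part on the TPM scale, where 3 core genes were lower and 1 higher in WT mice and 5 were lower in KO mice, 10 supernumerary genes were lower and 1 higher in WT mice and 9 lower and 2 higher in KO mice, while among 17 assembly factors 3 were higher in WT mice, and 4 were higher and 3 lower in KO mice.

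Of the 6 other mitochondrial mRNAs, 4 were lower in iBAT after flight in each genotype (medians −0.45 and −0.45). They included mt-Cytb (−0.43 and −0.56), mt-Atp8, an ATP synthase subunit that shares no read position with a copy (−0.65 and −0.74), and mt-Co2 (−0.76 and −0.80), which has 3 of 609 read positions of its own and came to −0.58 and −0.80 when summed with its copies. The mitochondrial rRNAs did not go with the mRNAs, since mt-Rnr2 was higher in FL_KO (0.75 ± 0.23, adjusted p = 0.0171, edgeR) and neither rRNA was called in WT mice. What poly(A) selection leaves of rRNA may differ between libraries, and its part was not tested. With TPM, 3 of the 6 mRNAs in WT and 2 in KO mice were lower, and 1 rRNA in WT and both in KO mice were higher. Of 33 tested genes of mitochondrial transcription and RNA handling, 6 were lower and 1 higher in FL_WT and 11 were lower and 5 higher in FL_KO. Slirp, which stabilises mitochondrial mRNAs, was lower in FL_WT (−0.57), Mterf2, a member of the transcription termination factor family, was lower in FL_KO (−1.13), and Polg, the mitochondrial DNA polymerase, was higher in FL_KO (0.28). The direction of this list was turned on the TPM scale, with 13 higher and 1 lower of 29 in WT mice and 17 higher and 1 lower in KO mice. Of 8 markers of mitochondrial mass, 1 was lower in FL_WT and 4 in FL_KO, among them Cs, citrate synthase (−0.55), but 6 were higher in WT mice and 4 higher and 1 lower in KO mice on the TPM scale.

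Marker lists of other cell types moved with flight in iBAT. The skeletal muscle list had 9 of 12 genes higher in FL_WT and 10 of 12 in FL_KO, and its mean log2 CPM was 8.12 to 9.47 in 3 libraries (FL_WT mice 06 and 08 and FL_KO mouse 11) and −1.79 to 3.15 in the other 20. Without these 3 libraries, mt-Nd1 (−0.42), mt-Nd2 (−0.37), mt-Nd4 (−0.35) and mt-Nd6 (−0.76) were still called in WT mice and all 5 calls were kept in KO mice, whereas mt-Nd3 (−0.43, adjusted p = 0.0593, edgeR) and mt-Nd4l (−0.32, adjusted p = 0.177, edgeR) of WT mice were not. Of the tested erythroid genes, 5 of 5 were lower in both genotypes after flight, with mean log2 CPM of 5.01 to 5.98 in GC_WT, 3.82 to 4.31 in FL_WT, 4.81 to 5.85 in GC_KO and 3.78 to 4.65 in FL_KO. The macrophage list had 4 of 6 genes higher in FL_KO and none called in FL_WT, with mean log2 CPM of 1.22 to 2.0 in GC_KO and 1.81 to 2.66 in FL_KO. The brown adipocyte list had 1 of 4 genes lower in FL_WT and 2 of 4 in FL_KO, and its mean log2 CPM was 9.01 to 9.72 in GC_WT, 8.53 to 9.29 in FL_WT, 8.42 to 9.66 in GC_KO and 8.27 to 9.37 in FL_KO. The part of the erythroid, macrophage and brown adipocyte lists in the lower values of the members was not tested.

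In eWAT, mt-Nd6 alone was called. It ran from 73.0 through 97.3 to 104 CPM in GC_WT and from 55.6 through 67.9 to 78.9 in FL_WT, so that the groups overlapped at their edges (−0.51 ± 0.14, adjusted p = 0.016, edgeR). In KO mice, where 7.71% of all genes of eWAT were called, its log2 fold change was −0.35 (adjusted p = 0.138, edgeR). The median of the 7 members in FL_WT against GC_WT was −0.33, beside −0.004 for all genes. Of 33 tested genes of mitochondrial transcription and RNA handling, 7 were lower in FL_WT, with the smallest adjusted p for Tfam, which packages mitochondrial DNA and starts its transcription (−0.32), Grsf1 (−0.34) and Hsd17b10 (−0.37), both parts of the RNA processing machinery. With TPM, 2 of 26 were lower. The brown adipocyte list had 0 of 3 tested genes called in this comparison, with a median of −1.52. The macrophage list had 2 genes higher and 1 lower of 6, with mean log2 CPM of 5.62 to 5.93 in GC_WT and 5.84 to 6.43 in FL_WT, and the skeletal muscle list summed to a median of 368 TPM in GC_WT and 159 TPM in FL_WT with 0 of 5 tested genes called. The part of these lists in the values of mt-Nd6 was not tested.

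In Thy of WT mice, mt-Nd1 was higher after flight, at 381 through 465 to 556 CPM in GC_WT and 533 through 575 to 612 in FL_WT. The groups overlapped at the edge (0.30 ± 0.09, adjusted p = 0.0178, edgeR). mt-Nd2 lay at the threshold (0.35, adjusted p = 0.0502, edgeR), and in KO mice no member was called (mt-Nd1 0.13, adjusted p = 0.293, edgeR), in a comparison in which 38.2% of all genes were. By TPM, the median of all genes in Thy was 0.18 (WT) and 0.16 (KO) higher after flight, and mt-Nd1 (0.54), mt-Nd2 (0.61), mt-Nd4 (0.38), mt-Nd5 (0.36) and mt-Nd6 (0.37) were called in WT mice and mt-Nd1 (0.39), mt-Nd2 (0.40) and mt-Nd6 (0.40) in KO mice. The nuclear genes of complex I in Thy went the other way with TMM scaling, with 1 core and 8 of 30 supernumerary genes lower in FL_WT and 4 core and 14 supernumerary genes lower in FL_KO. By TPM none of them was lower, and 2 core genes were higher in FL_WT. The T cell list had 5 of 7 genes lower in FL_WT and 6 of 7 in FL_KO, with mean log2 CPM of 8.67 to 8.80 in GC_WT, 8.24 to 8.55 in FL_WT, 8.59 to 8.75 in GC_KO and 8.13 to 8.33 in FL_KO, and the macrophage list had 2 and 6 of 6 genes higher. Their part in the values of the members was not tested.

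No member was called for flight in the other 6 tissues. Few genes were called there in all: 0% in TpB and in MdB in both genotypes, 2.26% in Spl and 3.45% in Liv of WT mice, 0.668% and 3.34% of KO mice, and 0.119% and 0.159% in Kid. In Kid, mt-Nd6 had 150, 169 and 159 CPM in the 3 FL_KO mice and 275, 265 and 178 in the GC_KO mice, which did not overlap (−0.59 ± 0.15, adjusted p = 0.144, edgeR). It was called by DESeq2, without a filter on low counts, and without GC_KO mouse 12 (−0.77), but not in the other 18 of 21 alternatives. In WT mice, mt-Nd6 had log2 fold changes of −0.75 in TpB, −0.45 in MdB and −0.33 in Kid and 0.11 in Liv, −0.02 in Cbr and −0.13 in Spl, with adjusted p from 0.44 to 1 (edgeR). In Cbr, where 0.0244% of all genes were called in WT mice and 0.0061% in KO mice, mt-Nd1, mt-Nd2, mt-Nd4 and mt-Nd5 lay between −0.09 and 0.04 in both genotypes.

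Whether the response to flight differed between genotypes was tested as an interaction. No pair was called by edgeR, DESeq2 or limma, and 0% of all genes were called in any tissue. Unadjusted, 5 of the 63 pairs passed 0.05 with edgeR, 4 with DESeq2 and 5 with limma. mt-Nd1 in iBAT had the smallest p among the pairs, with a log2 fold change that was 0.46 ± 0.14 lower in KO than in WT mice (coefficient −0.46, adjusted p = 0.303, edgeR). mt-Nd2 in iBAT had a coefficient of −0.27 (adjusted p = 0.514, edgeR).

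Genotypes were compared on the ground and in flight. On the ground, 4 of 63 pairs were called, all of them in Thy and all higher in GC_KO than in GC_WT, where 3.81% of all genes were called (2.67% as higher). mt-Nd1 ran from 613 through 691 to 861 CPM in GC_KO, above all GC_WT mice at 381 to 556 (0.59 ± 0.09, adjusted p = 0.000226, edgeR). mt-Nd2 ran from 204 through 237 to 307 CPM in GC_KO and from 104 through 146 to 176 in GC_WT (0.74 ± 0.13, adjusted p = 0.00134, edgeR). mt-Nd4 ran from 639 through 734 to 985 CPM in GC_KO and from 354 through 481 to 591 in GC_WT (0.70 ± 0.13, adjusted p = 0.00261, edgeR). In all of these no GC_KO mouse fell into the range of GC_WT, and the same held for mt-Nd5 at 372 to 504 against 217 to 318 CPM (0.62 ± 0.13, adjusted p = 0.00486, edgeR).

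mt-Nd6 was 23.7 to 30.1 CPM in GC_KO and 16.4 to 25.3 in GC_WT of Thy and was not called (0.31 ± 0.11, adjusted p = 0.125, edgeR). Expected counts of mt-Nd6 in the Thy libraries were 172 to 281. mt-Nd3 was not called by itself (0.13, adjusted p = 0.801, edgeR) but was when summed with Gm28438 (0.33, adjusted p = 0.00057, edgeR), and mt-Nd4l, listed at 0 in most Thy libraries, was higher in its sum with Gm10222 (0.90, adjusted p = 0.000431, edgeR). The other mitochondrial transcripts were also higher in GC_KO, with 3 of 5 mRNAs called, mt-Cytb (0.60), mt-Atp8 (0.59) and mt-Co1 (0.30), and both rRNAs, mt-Rnr1 (1.15) and mt-Rnr2 (0.77). Thy libraries were depleted of rRNA, and the part of this step in the rRNA values was not tested. None of the nuclear core, supernumerary or assembly genes was called (medians −0.03, −0.08 and −0.05), nor was any of the 8 markers of mitochondrial mass. Among the genes of transcription and RNA handling, Ppargc1b, a coactivator of mitochondrial biogenesis, was higher (0.43). On the TPM scale, where the median of all genes was 0.11 lower in GC_KO, mt-Nd1 (0.49), mt-Nd2 (0.65), mt-Nd4 (0.61) and mt-Nd5 (0.52) were called as well. The T cell list, whose mean log2 CPM ranged from 8.67 to 8.80 in GC_WT and 8.59 to 8.75 in GC_KO, had 1 gene higher and 1 lower of 7, and the macrophage list had none of 6 called, although its mean log2 CPM of 4.01 to 4.24 in GC_WT and 3.84 to 3.98 in GC_KO did not overlap. Their part in the values was not tested.

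In flight, the same 4 members of Thy were higher in FL_KO than in FL_WT, where 2.64% of all genes were called (1.31% as higher). mt-Nd1 had 759, 689, 691, 753 and 942 CPM in FL_KO and 533 to 612 in FL_WT (0.42 ± 0.09, adjusted p = 0.015, edgeR). mt-Nd2 had 239, 228, 229, 283 and 361 CPM against 158 to 199 (0.54 ± 0.13, adjusted p = 0.0292, edgeR), and mt-Nd4 had 677, 609, 651, 868 and 1078 against 440 to 571 (0.58 ± 0.14, adjusted p = 0.0224, edgeR). mt-Nd5 had 358, 324, 359, 491 and 611 CPM against 254 to 320 (0.54 ± 0.13, adjusted p = 0.0263, edgeR). The groups did not overlap for any of them, and mouse 12, the last value in each series, was the highest. Without this mouse none of the 4 was called, nor were they on the TPM scale (limma) or when mouse 04 was included. Of the other mitochondrial mRNAs, mt-Cytb (0.48), mt-Atp8 (0.45) and mt-Co1 (0.25) were higher as well, and neither rRNA was called. Of 30 supernumerary genes of complex I, 2 were lower, Ndufa6 (−0.22) and Ndufv3 (−0.21), and no core gene was called. The T cell list had 2 of 7 genes lower in FL_KO, with a median of mean log2 CPM of 8.23 beside 8.44 in FL_WT, and the B cell list had 0 of 4 called, with 3.09 beside 2.79. Their part in the values was not tested. In the other 8 tissues no member was called between genotypes, on the ground or in flight. Of all genes, 0.198% and 0.203% were called in TpB (on the ground and in flight), 0.244% and 0.208% in MdB, 1.13% and 1.16% in Spl, and 2.64% and 3.65% in Liv. The shares were 2.74% and 1.06% in eWAT, 2.14% and 1.5% in iBAT, 1.61% and 1.83% in Kid, and 0.836% and 0.531% in Cbr.

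The ratio of mt-Nd6 to mt-Nd5 within a library needs no scaling between libraries. In iBAT it ran from 0.121 through 0.130 to 0.159 in GC_WT and from 0.0680 through 0.0836 to 0.125 in FL_WT, and from 0.106 through 0.122 to 0.146 in GC_KO and from 0.0696 through 0.0826 to 0.104 in FL_KO. The KO groups did not overlap. The difference of mean log2 ratios was −0.65 in WT mice (exact two-sided permutation test, p = 0.00649, adjusted p = 0.104 over 36 comparisons) and −0.61 in KO mice (exact p = 0.00216, the smallest that the test can give, adjusted p = 0.0779). In Thy the ratio was lower in GC_KO than in GC_WT by the same test (−0.31, exact p = 0.00866, adjusted p = 0.104). None of the 36 comparisons thus passed the adjusted threshold, and in MdB and Kid the exact test cannot go below 0.1.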

How the data were processed

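Per the labels and the study's methods, RNA of 9 tissues was sequenced as single reads of 76 cycles, aligned with STAR 2.6.1 to mm10 with GENCODE annotation and quantified with RSEM 1.3.1. Whether counting used strand is not given in the sources used here. The authors deposited expected counts and TPM per gene; 192 FPKM columns were not used. Expected counts were rounded to whole numbers and tested with edgeR 4.0.16 (quasi-likelihood, TMM factors, filterByExpr, 4 groups in 1 fit per tissue). TPM were tested as log2(TPM + 1) with limma 3.58.1 where a gene's mean TPM reached 5. DESeq2 1.42.0, other scalings, no filter, each FL_KO mouse (and each mouse of MdB and Kid) left out and a replicate block were alternatives. The fit was tested on simulated counts. Annotation and transcript sequences were those of GENCODE vM21 (GRCm38), which held 99.95% of the gene identifiers; because 93 symbols were used more than once, genes were matched by identifier.

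The members and lists were chosen with earlier results of these data known. All members were named, and of each list at most 3 called genes per comparison, those with the smallest adjusted p. Flight and ground mice with the same number were different animals. Deviations of same-numbered mice were correlated above 0.1 in every one of 3 or more pairs only in KO mice of Liv (5 pairs, 0.222 to 0.369), where no member was called with or without the block.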

Additional observations from a re-analysis of the deposited data

Results flagged for a closer look

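In 20 of 196 groups of 5 or 6 mice, 1 mouse lay farther from the others than Dixon's 95% critical value for its TPM of a member; chance alone gives about 1 in 20 groups. They were found for every member and most often for mt-Nd4l, while mt-Nd3 had no more of them than mt-Nd6. The chance rate need not hold for mt-Nd4l, whose counts move in steps. For mt-Nd4l they were GC_KO mouse 11 in Liv at 948 TPM, with the others at 333 to 504, FL_KO mouse 12 in Liv at 711, GC_KO mouse 11 in eWAT at 1210, GC_KO mouse 09 in iBAT at 2336, FL_KO mouse 12 in Cbr at 732, and in Thy FL_WT mouse 03 at 37.7 and GC_KO mouse 01 at 28.1, where the other mice of the group were listed at 0. For mt-Nd3 they were GC_KO mouse 12 in Liv at 834 TPM, FL_KO mouse 01 in iBAT at 3273, with the others at 2178 to 2476, and FL_WT mouse 07 in Cbr at 3801.

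FL_WT mouse 08 in Liv stood apart for 3 members at once, with 14752 TPM of mt-Nd2, 18118 of mt-Nd4 and 8934 of mt-Nd5. FL_WT mouse 05 in eWAT did so for mt-Nd1 (15655 TPM, others 11049 to 11724) and mt-Nd2 (10610 TPM).

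For mt-Nd6 the mice that stood apart were GC_KO mouse 12 in Liv at 297 TPM, GC_WT mouse 07 in eWAT at 289 TPM, below the others of a group used in a called comparison, and GC_KO mouse 09 in Cbr at 957 TPM. The remaining ones were FL_WT mouse 07 in Spl for mt-Nd1 (4612 TPM) and GC_WT mouse 03 in Spl for mt-Nd5 (3104 TPM).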

How the results depend on the processing

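Numbers of called pairs of member and tissue changed by at most 1.5 times under all alternatives, with the exception of FL_KO against FL_WT, where 4 became 0 with limma on log2(TPM + 1), 0 with mouse 04 included and 0 without FL_KO mouse 12. Similar numbers did not mean the same pairs. For FL_WT against GC_WT, most calls were lower after flight with edgeR and most were higher with limma on TPM. In iBAT of WT mice, limma called mt-Nd6 alone. When each FL_KO mouse, and each mouse of MdB and Kid, was left out in turn, the counts were 8 to 9 for FL_WT against GC_WT, 5 to 6 for FL_KO against GC_KO, 4 to 4 for GC_KO against GC_WT, 0 to 4 for FL_KO against FL_WT, and 0 for the interaction and for the ratio of mt-Nd6 to mt-Nd5. In iBAT, eWAT and Thy, which held all calls in the results above, no GC_WT, GC_KO or FL_WT mouse was left out in this series. The counts of FL_WT against GC_WT and of GC_KO against GC_WT thus cannot show how these calls depend on single mice. Summing members with their nuclear copies, an alternative chosen after seeing the data like that without muscle-rich libraries, gave 10, 7, 6 and 6 calls in the order above. It also turned mt-Nd4l in Thy, GC_KO against GC_WT, from −1.82, not called, to 0.895. Fitting only the groups compared gave no value for the interaction.

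With a replicate block, 9 pairs were called in WT mice after flight. mt-Nd3 in iBAT of KO mice (−0.40, adjusted p = 0.0482, edgeR) and mt-Nd2 in Thy of WT mice (0.38, adjusted p = 0.0332, edgeR) became called. The pairing was a shared number only in these tissues.

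As a share of expected counts instead of TPM, the members held 3.17% in TpB, 2.0% in MdB, 0.992% in Spl, 3.72% in Liv, 3.35% in eWAT, 12.6% in iBAT, 6.78% in Kid and 2.78% in Cbr. In Thy they held 0.307% of TPM when mitochondrial rRNA and small RNA genes were left out of the total. Depth limits mt-Nd4l in particular, whose counts in Thy came to at most 2 steps.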

Other observations

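Ratios of mt-Nd5 and mt-Nd6 to mt-Nd1 were added after the values had been seen. mt-Nd5 to mt-Nd1 in iBAT was 0.385 in GC_KO and 0.598 in FL_KO (means), without overlap between the groups, a difference of 0.63 on the log2 scale (exact two-sided permutation test, p = 0.00216, adjusted p = 0.0779 over 36 comparisons). In Thy of WT mice the same ratio was lower after flight by the same test (−0.18, exact p = 0.00433, adjusted p = 0.0779). mt-Nd6 to mt-Nd1 in iBAT had a difference of 0.02 in KO mice (exact permutation p = 0.816) and −0.39 in WT mice (exact permutation p = 0.0173, adjusted p = 0.312), and in eWAT of WT mice −0.33 (exact permutation p = 0.00866, adjusted p = 0.312). None of these passed the adjusted threshold.

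Without Thy, the nuclear genes most like the members across 8 tissue means of GC_WT mice were Gm10222 (0.99), Ndufb9, a supernumerary subunit of complex I (0.99), Gm13340 (0.98), Sod2, the superoxide dismutase of the mitochondrial matrix (0.98), and Mipep (0.98).

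All 22 mitochondrial tRNA genes were listed at 0 TPM in the GC_WT libraries of every tissue.

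In Cbr, where no member was called, mt-Atp6 was called higher in GC_KO than in GC_WT (0.89 ± 0.16, adjusted p = 0.00359, edgeR), but 3 of its 606 read positions fit no other transcript, and summed with its copy it had a log2 fold change of 0.01 (adjusted p = 0.984, edgeR).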
